A study of Mus musculus with 6 samples.

Results

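The histone genes of embryonic submandibular glands (eSMGs), the developing salivary glands of the mouse, were examined in 3′ mRNA sequencing libraries. Of 23260 genes counted, 84 were histone genes by their symbols. The 68 genes whose symbols begin with Hist, a cluster number, the letter h and a histone type (Hist1h2ap, for example) formed the replication-dependent class. The 16 genes whose symbols begin with H2af, H3f3 or H1f formed the variant, polyadenylated class. The eSMGs came from ICR mice at embryonic day 14, and no transgene or mutant allele is named in the labels. Cultures lasted 6 h, without the drug or in 50 µM AMD3100, which blocks the chemokine receptor CXCR4, and 3 tubes of up to 10 glands were sequenced per group. As a tube holds every cell type of the gland, fewer cells of a type and less RNA per cell cannot be told apart. Nothing in the labels says that the tubes came from separate litters, and p-values therefore measure the spread between these 6 samples.

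Histones package DNA into nucleosomes, which are built from H2A, H2B, H3 and H4, with H1 on the linker DNA between them. Replication-dependent histone genes lie in clusters and are transcribed in S phase. Their mRNAs end in a conserved stem-loop, bound by the protein SLBP, and normally carry no poly(A) tail. Most variant histone genes stand alone, are expressed outside S phase as well, and make ordinary polyadenylated mRNAs. The library kit primes on A-rich stretches at the 3′ end of RNA, so that the classes differ in the feature on which the measurement depends.

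The 3′ ends of the annotated transcripts showed this difference in sequence. Symbols of 66 replication-dependent and 12 variant genes matched a GENCODE vM1 protein-coding transcript, and the sense strand of the longest transcript of each gene was searched. The histone stem-loop was found in 40 of the 66 replication-dependent genes and in 1 of the 12 variants, H2afx. Among all 22611 genes with such a transcript, 43 (0.190%) held it, and the only holders that were not histone genes by symbol were 1700014N06Rik and Trim17. Of the replication-dependent genes with over 30 annotated bases after the stop codon, 40 of 53 held the stem-loop, whereas 8 had no annotated base there at all. No match says only that these letters are not in the annotated window. A poly(A) signal, AATAAA or ATTAAA, lay in the last 50 bases of 17 of the 66 replication-dependent genes, of 9 of the 12 variants and of 65.9% of all genes, and neither signal can lie within the letters of the stem-loop. The following stem-loops are shown because they belong to the H1, H2A and H4 genes described further on and to the only variant that had one. The 16 bases of the stem-loop are in capitals.
Hist1h1e: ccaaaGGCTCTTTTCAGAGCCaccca
Hist1h2ab: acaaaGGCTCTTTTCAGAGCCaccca
Hist1h2ai: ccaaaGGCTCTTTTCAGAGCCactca
Hist1h4d: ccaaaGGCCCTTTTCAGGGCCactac
H2afx: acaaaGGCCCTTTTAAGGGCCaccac
The stem-loop of the first 3 was the most common form, with the same 16 bases in 27 histone genes. That of Hist1h4d occurred in 6 histone genes, all of H4, and that of H2afx in no other histone gene.

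The ends of 5 variant genes are shown for comparison, with the poly(A) signal in capitals.
H3f3a: tttgaaaaatAATAAAagtaccaata
H2afz: ctgcttactaATTAAAcagtgcatct
H2afv: aatgcacagaAATAAAgaaactagca
H1fx: cctggggcgcAATAAAcggttccaac
H2afx: ggctaattttATTAAAggatcgtttg
H2afx thus held both kinds of 3′ end in its annotated transcript. Some replication-dependent genes did as well, such as Hist1h2ai, whose annotated transcript runs for 598 bases past the stem-loop and holds the signal below near its end.
Hist1h2ai: aagtgcttttAATAAAaattacattg

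A second feature of sequence decides which gene a 50-base read is counted on. Of the 50-base windows in the last 300 bases of each transcript, the median replication-dependent gene shared 48.6% with a transcript of another gene, and the median variant gene 0%. The share was over 10% in 46 of 66 replication-dependent genes and in 1 of 12 variants, H2afb1. It depends on the bases searched. In the last 150 bases alone it was over 10% in 31 of 66 replication-dependent genes and 0 of 12 variants, so that the median replication-dependent gene lay below 10%. The window below, shown because a read of this sequence cannot be assigned to any single gene, lay in the coding sequence of 18 H2A genes, among them H2afx, and also in the annotated transcript of Hist2h3c1, outside its coding sequence.
H2A coding window: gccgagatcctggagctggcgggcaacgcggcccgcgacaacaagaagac
The annotated transcripts of Hist1h2ao and Hist1h2ap were identical, as were those of Hist2h2aa1 and Hist2h2aa2. Of the 470 windows of the Hist1h2ao and Hist1h2ap transcript, 145 occurred in these genes alone, 33 of them at its 3′ end, and 325 also in other genes. How the authors' counting treated reads with several places is not given in the sources used here, and the values of single genes within these groups of copies are uncertain for that reason. The same holds for sums over the copies and for ratios and shares built on such sums. A read with several places may have been counted on more than 1 gene, and whether it was could not be tested.

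The libraries held 9051595 to 14393031 counts. Levels of genes are given as CPM (counts scaled to a common library total after TMM normalization), on which scale the smallest level called measurable, 3 counts, stood at 0.173 to 0.368 CPM, and floors and intervals cover counting error only. All 10 epithelial markers examined had counts in all 6 libraries, with Krt15, a keratin of basal epithelium, the most abundant. Before any comparison, replicate 3 of both groups stood apart. On the first principal component, which held 46.8% of the variance, these libraries lay at 69.9 (control) and 66.7 (AMD3100) and the other 4 between -43.9 and -26.0. The summed level of 8 skeletal muscle markers, of which Myog was the most abundant in both, was 1384 and 1779 CPM in the replicate 3 libraries and 86.9 to 158 CPM in the others. Of these 8 markers, 7 were above 2 times both other libraries of their group, and Ckm was at 0 in control replicate 1 and, with Myod1, in AMD3100 replicate 2. The summed level of 10 mesenchymal markers, led by Col3a1, was 2144 and 1850 CPM there and 4386 to 4463 CPM in the others. Of these 10, only the collagen genes Col1a1, Col1a2 and Col3a1 were below 0.5 of both other libraries in replicate 3 of both groups, and Lum was highest there in both. Replicate 3 also listed the most genes with a count, 16249 and 16345 against 13761 to 15533. The summed level of the epithelial markers was 2215, 2213 and 1474 CPM in control and 2649, 2331 and 3434 CPM in AMD3100-treated eSMGs, without overlap on this scale, and Krt15 alone made up 72.0% of it in AMD3100 replicate 3. Without Krt15 the sum was 1174, 1201 and 586 CPM in control and 1282, 1315 and 962 CPM in AMD3100-treated eSMGs, so that the groups overlapped and replicate 3 was the lowest of each. Of the 10 epithelial markers, 4 (Krt8, Krt5, Sox10 and Kit) were below 0.5 of both other libraries in replicate 3 of both groups. The part of these differences in the histone results was not tested.

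The replication-dependent genes together had about as many counts as the variant genes, nearly all of them on H2A, and their share differed more by replicate number than by treatment. Their sums may hold a read more than once where copies share it. For this share, the mean of replicate 3 was 0.580 of that of replicates 1 and 2, whereas the mean of AMD3100 was 1.11 times that of control. The 68 genes together held 0.256%, 0.263% and 0.171% of the counts in control replicates 1 to 3, and 0.307%, 0.301% and 0.156% in AMD3100 replicates 1 to 3. The 95% Wilson intervals were within 0.153% to 0.159% for the lowest library and 0.305% to 0.310% for the highest. Replicate 3 was thus the lowest library of either group, and the ranges of the groups overlapped. The mean was 0.230% ± 0.0512 (SD, n = 3) in control and 0.255% ± 0.0856 (n = 3) in AMD3100-treated eSMGs, a difference smaller than either SD. The 16 variant genes held 0.191%, 0.209% and 0.250% of the counts in control and 0.234%, 0.186% and 0.188% in AMD3100-treated eSMGs, with means of 0.217% ± 0.0303 and 0.203% ± 0.0272 (n = 3 each). Their groups overlapped as well, and replicate 3 was the highest in control but not in AMD3100. Summed as TMM-normalized CPM, the variants stood at 1932, 1996 and 2713 in control and 1941, 1948 and 2090 in AMD3100-treated eSMGs, and on that scale replicate 3 was the highest in both groups.

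**Figure D1:**
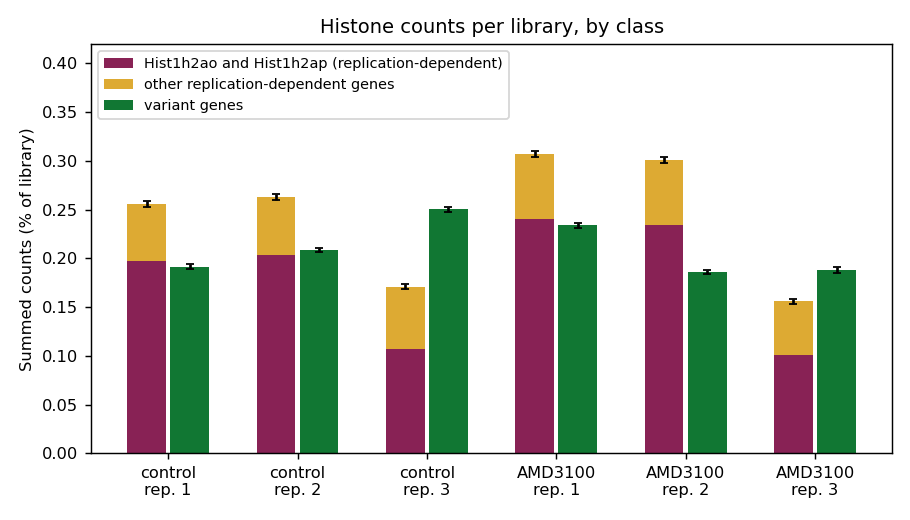
Summed counts of each histone class as percent of all counts in each library, with bars from 0 and 95% Wilson intervals on the class totals. The replication-dependent bar is split into Hist1h2ao with Hist1h2ap and all others, and of these parts that of Hist1h2ao and Hist1h2ap is visibly low in replicate 3 of both groups. The genes outside H2A, a small portion of the others, were low there as well, with replicate 3 at 0.413 of replicates 1 and 2.

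The ratio of replication-dependent to variant counts contrasts the classes within a library, free of library size but not of how shared reads were counted. It was 1.34, 1.26 and 0.683 in control and 1.31, 1.62 and 0.830 in AMD3100-treated eSMGs. In both groups the replicate 3 library alone had more variant than replication-dependent counts. The means, 1.09 ± 0.357 and 1.25 ± 0.398 (SD, n = 3 each), differed by less than the spread between replicates, and the mean of replicate 3 was 0.547 of that of replicates 1 and 2. The small RNA genes (symbols beginning with Snord, Snora, Scarna or Rnu), whose mature RNAs also lack poly(A) tails, held 0.0314%, 0.0233% and 0.0122% of counts in control and 0.0174%, 0.0294% and 0.0157% in AMD3100-treated eSMGs, and were lowest in replicate 3 of each group. As summed CPM (317, 223 and 133 in control, 144, 308 and 175 in AMD3100-treated eSMGs) they were lowest in replicate 3 in control only. Rn45s, the ribosomal RNA precursor, took 32.4%, 27.5% and 20.2% in control and 16.2%, 32.5% and 22.7% in AMD3100-treated eSMGs, and was lowest in replicate 3 in control only.

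Although the 4 core histones are made in equal amounts in S phase, their genes were counted very unequally. H2A genes took 95.5% to 97.4% of the replication-dependent counts of a library, where reads shared by H2A copies may be counted more than once. The 12 H3 genes summed to between 1 and 38 counts per library, none of them reached more than 24 counts in a library, and 0 of the 12 passed edgeR's filter on low counts. The 13 H4 genes summed to 43 to 166 counts, and 2 of them passed. Of 19 H2B genes 3 passed, of 6 H1 genes 4, and of 18 H2A genes 17, which made 26 of 68. Of the variants, 10 of 16 passed. A read is taken once per transcript near its 3′ end, so these counts were not divided by length, and comparisons between genes are of reads counted, not of transcripts. Of the 68 replication-dependent genes, 67 had a count in some library, but the number with a count in a given library was 39, 45 and 54 in control and 43, 29 and 54 in AMD3100-treated eSMGs. Replicate 3 therefore had the most replication-dependent genes with a count and the smallest share of reads on them.

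**Figure D2:**
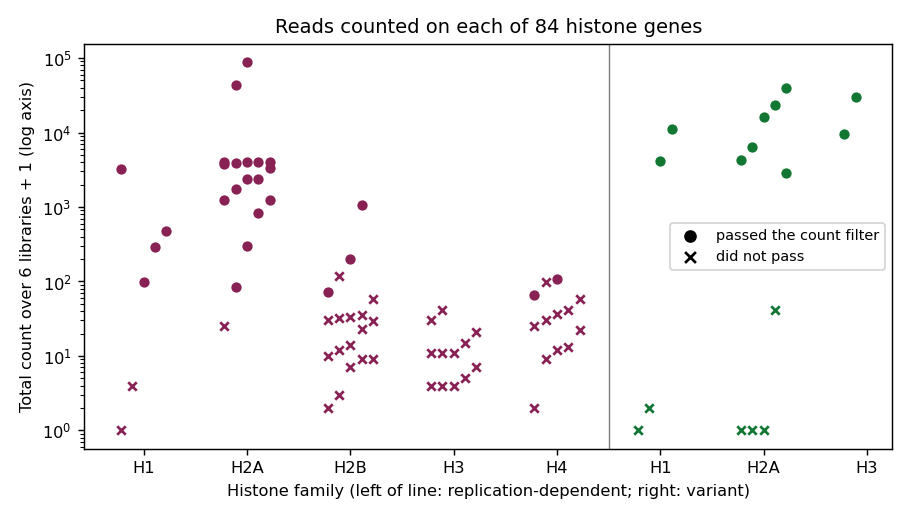
Total count over 6 libraries plus 1, on a log axis, for each of the 84 histone genes by family, with circles for genes that passed the filter on low counts and crosses for those that did not. Replication-dependent H3 genes lie at 41 counts or fewer, whereas 17 of 18 H2A genes passed.

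Among the replication-dependent genes of linker histone H1, most reads lay on Hist1h1e. Hist1h1e (chr13:23621777-23622558), a main somatic H1 gene, stood at 55.9, 47.9 and 13.2 CPM in control and 52.3, 72.4 and 18.7 CPM in AMD3100-treated eSMGs. Replicate 3 was low in both groups, at 0.254 and 0.300 of the mean of replicates 1 and 2, and the groups overlapped (log2 fold change of AMD3100 over control 0.29, standard error [SE] 0.60, edgeR unadjusted p = 0.638). Without replicate 3 in both groups the log2 fold change was 0.26 (edgeR unadjusted p = 0.325), but it turned to -0.12 without control replicate 3 alone and to -0.13 without AMD3100 replicate 2. Hist1h1b had 39, 158 and 11 counts in the control replicates, against 111, 154 and 4 with AMD3100. Hist1h1c had 19, 155 and 3 counts in the control replicates, against 85, 18 and 13 with AMD3100. These 3 genes varied the most of the replication-dependent genes that passed the filter, with within-group SDs of log2(CPM + 1) of 1.05 (Hist1h1e), 1.52 (Hist1h1b) and 1.26 (Hist1h1c), against a median of 0.309 for the class. Hist1h1t, the H1 gene of the testis, had 0 counts in every library.

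The H2A reads lay mainly on Hist1h2ao and Hist1h2ap, a pair in the large cluster of chromosome 13. Of the replication-dependent genes whose symbol matched 1 RefSeq gene (GRCm38.p6), 53 lay on chromosome 13, 10 on chromosome 3, 3 on chromosome 11 and 1 on chromosome 6. Hist1h2ao matched the gene now named H2ac23 (chr13:21810367-21810918), and Hist1h2ap matched both H2ac23 and H2ac24 (chr13:21833024-21833475). Hist1h2ap stood at 1329, 1293 and 775 CPM in control and 1330, 1632 and 740.5 CPM in AMD3100-treated eSMGs. Hist1h2ao stood at 667, 654 and 389 CPM in control and 665, 818 and 377 CPM in AMD3100-treated eSMGs. Both were lowest in replicate 3 and overlapped between the groups, with log2 fold changes of 0.12 (SE 0.37, unadjusted p by edgeR = 0.748) for Hist1h2ap and 0.12 (SE 0.37, unadjusted p by edgeR = 0.753) for Hist1h2ao. Without replicate 3 in both groups, Hist1h2ap had a log2 fold change of 0.17 (edgeR unadjusted p = 0.146). Its direction turned without control replicate 3 (-0.09) and without AMD3100 replicate 2 (-0.13), and that of Hist1h2ao did so too (-0.09 and -0.13). The ratio of Hist1h2ap to Hist1h2ao counts was 1.99, 1.98 and 2.0 in control and 2.0, 1.99 and 1.97 in AMD3100-treated eSMGs, so that these genes of identical annotated sequence moved in a fixed proportion. Together they held 77.3%, 77.4% and 62.8% of replication-dependent counts in control and 78.3%, 77.7% and 64.4% in AMD3100-treated eSMGs.

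Several other Hist1 H2A genes had nearly equal counts within each library. The 7 genes Hist1h2ab, Hist1h2ac, Hist1h2ad, Hist1h2ae, Hist1h2ag, Hist1h2ah and Hist1h2ai, grouped after their values were seen, had counts of 509 to 611, 579 to 748 and 517 to 768 in control and 721 to 850, 586 to 686 and 386 to 537 in AMD3100-treated eSMGs. The highest of them was 1.17 to 1.49 times the lowest in each library. Hist1h2ap was 27.2, 27.3 and 10.6 times their median in control and 28.5, 27.3 and 11.8 times in AMD3100-treated eSMGs. This ratio was lower in replicate 3 of both groups and much the same in the other 4 libraries. Hist1h2ac, for example, stood at 45.4, 44.1 and 71.7 CPM in control and 44.5, 54.9 and 62.9 CPM in AMD3100-treated eSMGs, and was highest in replicate 3 of each group. Without Hist1h2ao and Hist1h2ap, the H2A genes held 0.0484%, 0.0475% and 0.0591% of counts in control and 0.0550%, 0.0561% and 0.0508% in AMD3100-treated eSMGs. The replicate 3 library was the highest of the 3 for this share in control and the lowest in AMD3100. As summed CPM (488, 454 and 641 in control, 456, 587 and 565 in AMD3100-treated eSMGs) it was again the highest in control, but lay between the others in AMD3100.

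**Figure D3:**
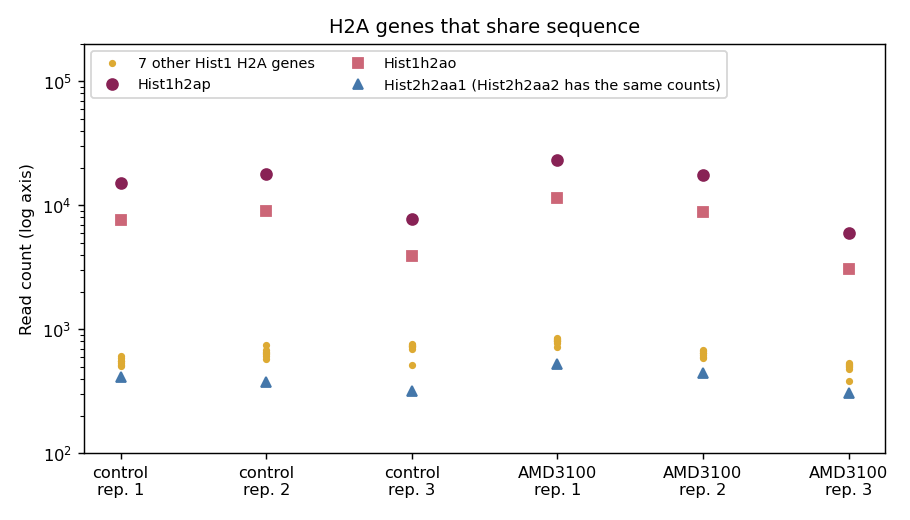
Read counts of H2A genes in each library, on a log axis. Hist1h2ap sits at about 2.0 times Hist1h2ao in all 6 libraries, both fall in replicate 3, and the 7 other Hist1 genes stay within 386 to 850 counts.

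On chromosome 3, Hist2h2aa1 (chr3:96245497-96246052) and Hist2h2aa2 (chr3:96239779-96240374), whose annotated transcripts are identical, had the same count in every library, with 411, 374 and 321 in control and 524, 446 and 306 in AMD3100-treated eSMGs. They are best read as 1 value. At 36.0, 27.2 and 32.0 CPM in control and 30.2, 41.1 and 37.6 CPM in AMD3100-treated eSMGs, replicate 3 was neither the highest nor the lowest (log2 fold change 0.19, SE 0.29, unadjusted p by edgeR = 0.527). Hist2h2ac, in the same cluster, had 75, 63 and 16 counts in the control replicates, against 70, 69 and 4 with AMD3100, and was low in replicate 3 of both groups. Hist1h2aa, the H2A gene of the testis, had 4 to 20 counts.

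Among H2B genes, Hist1h2bc (chr13:23684199-23692480) held most of the reads, with 15.5, 15.7 and 16.4 CPM in control and 18.5, 9.68 and 11.2 CPM in AMD3100-treated eSMGs. The groups overlapped (log2 fold change -0.27, SE 0.39, unadjusted p by edgeR = 0.504). Its annotated transcript carries a poly(A) signal and shared 0% of its end windows with other genes. Of the 19 H2B genes, only 2, Hist1h2bc and Hist2h2be (26 to 46 counts), had a count in all 6 libraries. The others came and went between libraries. Hist2h2bb, for instance, had 0, 11 and 7 counts in the control replicates, against 44, 52 and 5 with AMD3100, and was not tested. For the H4 genes Hist1h4d had 0, 61 and 6 counts in the control replicates, against 5, 28 and 8 with AMD3100, and Hist1h4i had 4, 18 and 29 in control and 5, 0 and 9 in AMD3100-treated eSMGs. With counts of this size and spread, Hist1h4d and Hist1h4i did not pass the test (unadjusted p by edgeR = 0.818 and 0.332).

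The 10 variant genes that passed the filter had at least 175 counts in every library. Replication-independent H3.3, the same protein from both of its genes, was read through H3f3b and H3f3a. H3f3b (chr11:116021961-116026039) stood at 356, 399 and 532 CPM in control and 379, 431 and 499.6 CPM in AMD3100-treated eSMGs. The groups overlapped, with replicate 3 the highest in each (log2 fold change 0.02, SE 0.29, unadjusted p by edgeR = 0.937). H3f3a (chr1:180802560-180813605) stood at 137, 149.7 and 153 CPM in control and 124, 131 and 116 CPM in AMD3100-treated eSMGs. All 3 AMD3100 libraries lay below all 3 control libraries, and H3f3a was the only histone gene that passed the filter whose groups did not overlap, which held for 7.44% of all genes tested (4.17% lower and 3.28% higher in AMD3100). The difference was small against the error of the fit (log2 fold change -0.25, SE 0.26, unadjusted p by edgeR = 0.362, adjusted p = 1.0), although H3f3a had the smallest within-group SD of the 10 variants tested, 0.088 on the log2(CPM + 1) scale. Without overlap, H3f3a was necessarily lower in AMD3100 in 3 of 3 pairs of the same replicate number, which adds nothing further.

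The variants with the largest spread between replicates were of H2A, namely H2afy2, H2afy and H2afz, with within-group SDs of 0.960, 0.852 and 0.508 on the log2(CPM + 1) scale. H2afz (chr3:137864487-137866922), which encodes H2A.Z, a variant found at transcription start sites, stood at 443, 517 and 983 CPM in control and 459.6, 424 and 695 CPM in AMD3100-treated eSMGs. Replicate 3 was the highest of each group, and the groups overlapped (log2 fold change -0.30, SE 0.38, unadjusted p by edgeR = 0.452). The log2 fold change of H2afz was -0.13 without replicate 3 in both groups, and it turned to 0.14 without control replicate 3 alone. H2afv (chr11:6427226-6444511), the second gene of H2A.Z, stood at 318, 264 and 518 CPM in control and 302, 282 and 329 CPM in AMD3100-treated eSMGs, and its log2 fold change was -0.27 (SE 0.32, unadjusted p by edgeR = 0.431). The high control mean of H2afv came from replicate 3, and its log2 fold change was 0.07 without that library. H2afx (chr9:44334715-44336077), which encodes H2A.X, phosphorylated at DNA breaks, stood at 111, 96.1 and 87.1 CPM in control and 70.0, 97.7 and 70.7 CPM in AMD3100-treated eSMGs. Its groups overlapped through AMD3100 replicate 2 (log2 fold change -0.30, SE 0.28, unadjusted p by edgeR = 0.314). H2afj (chr6:136808248-136810074) stood at 67.7, 42.3 and 66.6 CPM in control and 59.6, 66.8 and 66.3 CPM in AMD3100-treated eSMGs, where control replicate 2 was the low library.

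The macroH2A genes, whose proteins carry a large additional domain and mark repressed chromatin, moved in opposite directions in replicate 3. H2afy (macroH2A1, chr13:56073622-56135626) stood at 250.4, 270.2 and 97.3 CPM in control and 276, 274 and 94.2 CPM in AMD3100-treated eSMGs. H2afy2 (macroH2A2, chr10:61738640-61784604) stood at 26.8, 33.6 and 102 CPM in control and 25.9, 16.1 and 58.0 CPM in AMD3100-treated eSMGs. Replicate 3 was thus 0.374 and 0.343 of replicates 1 and 2 for H2afy, and 3.39 and 2.76 times replicates 1 and 2 for H2afy2, with control first. In both groups, replicate 3 was below 0.5 of each other library for 5.8% of all genes tested and above 2 times each other library for 5.56%. Between the treatments H2afy had a log2 fold change of 0.06 (SE 0.51, unadjusted p by edgeR = 0.909), which was 0.07 without replicate 3 in both groups, -0.28 without control replicate 3 and 0.41 without AMD3100 replicate 3. H2afy2 had the lowest p of all histone genes tested and was lower in AMD3100 in 3 of 3 pairs (log2 fold change -0.70, SE 0.61, unadjusted p by edgeR = 0.281, adjusted p = 1.0). When edgeR also modelled the replicate number (a replicate block), its log2 fold change was -0.64 (SE 0.24, unadjusted p = 0.0244, adjusted p = 0.703). That fit called 1 of the 10 variants tested, H2afy2, and 0 of the 26 replication-dependent genes by an unadjusted p under 0.05 with a fold change over 1.5, as it did 4.39% of all genes. In the fit without the block, the log2 fold change of H2afy2 turned to 0.15 without control replicate 3 alone (edgeR unadjusted p = 0.777). That fit keeps AMD3100 replicate 3 without its pair. Without replicate 3 in both groups the log2 fold change stayed negative, at -0.53 (edgeR unadjusted p = 0.181). Without AMD3100 replicate 3 it was -1.38 (edgeR unadjusted p = 0.0434), in a fit that called 3.16% of all genes.

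**Figure D4:**
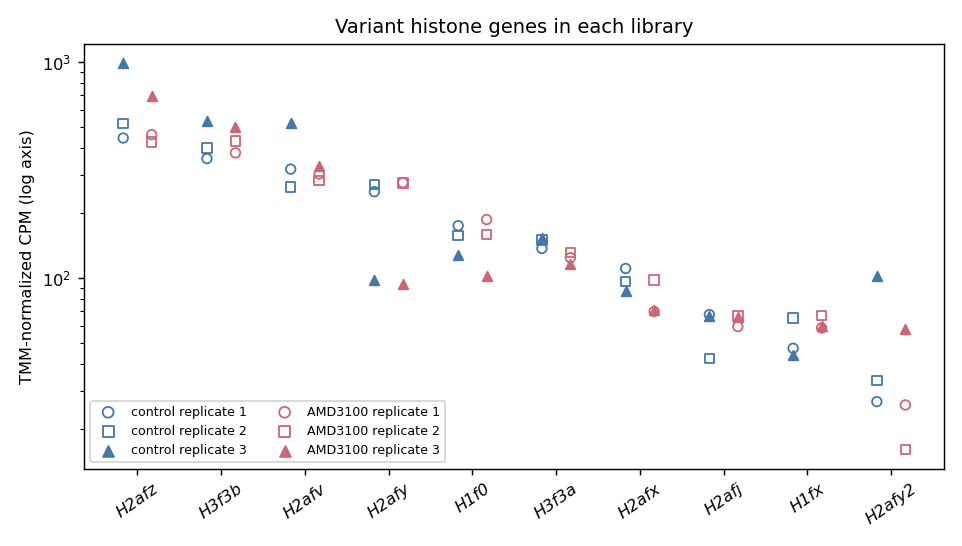
TMM-normalized CPM of the 10 variant histone genes that passed the count filter, in each of the 6 libraries, on a log axis, with replicate 3 as filled triangles. Replicate 3 lies high for H2afz and H2afy2 and low for H2afy in both groups, and the control and AMD3100 points of H3f3a do not overlap.

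Variant linker histones were read through H1f0 and H1fx. H1f0 (chr15:79028212-79030504), the H1 variant of resting and differentiated cells, stood at 174, 157 and 128 CPM in control and 186, 159 and 102 CPM in AMD3100-treated eSMGs, with replicate 3 the lowest in each group (log2 fold change -0.04, SE 0.32, unadjusted p by edgeR = 0.903). H1fx (chr6:87980421-87981482) stood at 47.3, 65.3 and 44.1 CPM in control and 58.6, 67.1 and 59.9 CPM in AMD3100-treated eSMGs, and was higher in AMD3100 in 3 of 3 pairs (log2 fold change 0.24, SE 0.28, unadjusted p by edgeR = 0.408). As control replicate 2 lay above AMD3100 replicate 1, that count of pairs depends on the replicate numbers of the labels. The groups of both genes overlapped. The variants of the germ line were at or near 0, as H1foo (oocyte) had 1 count in 1 library and H1fnt, H2afb1, H2afb2 and H2afb3 (testis) had 0 in all, which allows levels of up to 0.173 to 0.368 CPM. H2afy3 had 0 to 19 counts and was not tested.

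Across the whole class, no replication-dependent histone gene passed a test of AMD3100 against control. In the quasi-likelihood test of edgeR, 0 of the 26 tested had an unadjusted p under 0.05 with a fold change over 1.5, where 1.68% of the 13610 genes tested did (0.397% higher and 1.28% lower in AMD3100), and 0 had an adjusted p under 0.05, as for all genes (0.0%). The lowest unadjusted p was 0.332. The log2 fold changes ranged from -1.72 (Hist1h4i) to 0.39 (Hist1h1b, from -0.62 to 1.63 with libraries left out), with 12 higher and 14 lower in AMD3100, and had a median of -0.01 beside 0.02 over all genes tested. Because 17 of the 26 were H2A genes, some with equal or proportional counts, this tally and median do not rest on 26 separate values. By the same rules 0 of 10 variants passed. Of these, 4 were higher and 6 lower, with a median log2 fold change of -0.14 and a range from -0.70 (H2afy2) to 0.24 (H1fx). The variant median was -0.26 with DESeq2 and turned to 0.11 without control replicate 3 and to 0.03 without replicate 3 in both groups. The replication-dependent median ran from -0.10 to 0.14 with libraries left out. Of 24 histone genes refitted in this way, the sign turned for 19 when libraries were left out and was kept for 5, namely H3f3a, H2afx, H1fx, Hist2h2aa1 and Hist2h2aa2. DESeq2 also called 0 of the 67 replication-dependent and 0 of the 12 variant genes it tested, and 2.62% of all genes. Without replicate 3 in both groups, edgeR called 0 of 29 and 0 of 10, and 4.39% of all genes. With the replicate block it called 0 of 26 and 1 of 10 (H2afy2), and 4.39% of all genes. With libraries left out, 0 to 1 variants were called. At shares of 1.68% to 4.39%, fewer than 2 calls among 26 or 10 genes could be awaited from the background alone, so a count of 0 or 1 says little about the classes. The standard errors had a median of 0.37 for the replication-dependent and 0.30 for the variant genes, against 0.50 for all genes tested.

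**Figure D5:**
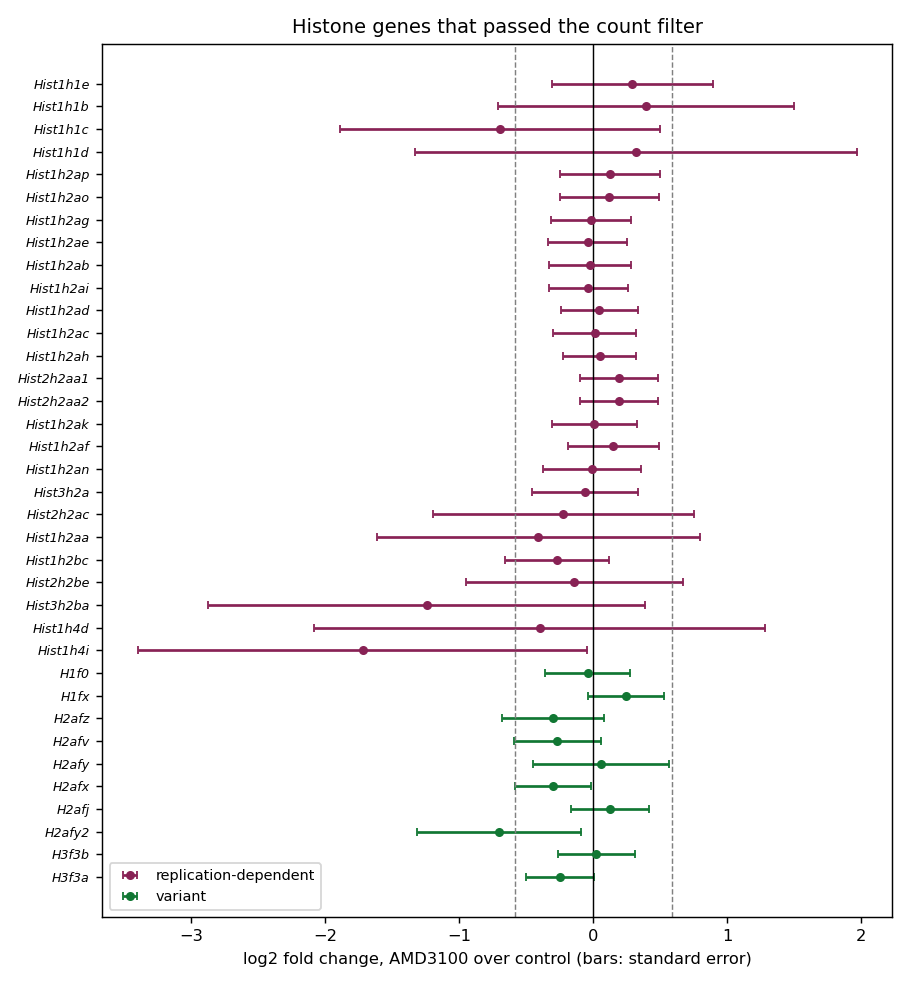
Log2 fold change of AMD3100 over control, with the standard error as bars, for the 26 replication-dependent and 10 variant histone genes tested, and dashed lines at a fold change of 1.5 in either direction. The bars of H2A genes with many reads are short and cross 0, and those of H1, H2B and H4 genes with few reads are long.

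The spread between replicates was similar in both classes. The median within-group SD of log2(CPM + 1) was 0.309 for replication-dependent and 0.314 for variant genes tested, and 0.563 over all genes tested, which were not matched for number of reads. It was 0.287 for replication-dependent H2A and 1.16 for H1. By edgeR's biological coefficient of variation the medians were 0.373, 0.321 and 0.461.

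The genes that make and carry histones were examined alongside. Of 18 genes of histone 3′ end processing and histone mRNA turnover, 17 were tested, and 1 was called lower and 0 higher by an unadjusted p under 0.05 with a fold change over 1.5, beside 1.28% lower and 0.397% higher over all genes. That gene was Cstf2t, which encodes a form of the cleavage stimulation factor CstF-64, with 29.2, 25.3 and 22.9 CPM in control and 15.8, 9.49 and 10.6 CPM in AMD3100-treated eSMGs. The groups did not overlap, as for 7.44% of all genes (log2 fold change -1.11, SE 0.35, unadjusted p by edgeR = 0.0125, adjusted p = 1.0). Mbnl2, an RNA-binding protein of the muscleblind family and the most abundant of the list, stood at 220, 240.4 and 176 CPM in control and 275, 240.8 and 275 CPM in AMD3100-treated eSMGs, again without overlap, but with a log2 fold change of 0.31 (SE 0.27, unadjusted p by edgeR = 0.280). A role of Mbnl2 in histone mRNA was not tested, and its values are no result about histone mRNA. Slbp, which encodes the stem-loop binding protein and was singled out for that role after its values were seen, stood at 14.4, 11.5 and 38.7 CPM in control and 14.1, 8.94 and 21.0 CPM in AMD3100-treated eSMGs. Slbp was thus highest in replicate 3 of each group, where Hist1h2ap and Hist1h1e were lowest but Hist1h2ac was highest as well. Between the treatments the values of Slbp overlapped (log2 fold change -0.55, SE 0.54, unadjusted p by edgeR = 0.334). The list had a median log2 fold change of 0.07, beside 0.02 over all genes.

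Of 23 histone chaperones and deposition factors tested, 0 were called, beside 1.68% of all genes, with a median log2 fold change of 0.10. With the replicate block edgeR called 1 of them, beside 4.39% of all genes, namely Daxx, a chaperone of H3.3 (log2 fold change -0.60, unadjusted p = 0.00844, adjusted p = 0.553). Npm1, the nucleolar chaperone nucleophosmin, was the most abundant, with means of 612 ± 104 CPM in control and 655 ± 71.3 CPM in AMD3100-treated eSMGs (SD, n = 3 each). Of 20 genes of S phase and replication tested, 0 were called, beside 1.68% of all genes, 7 were higher and 13 lower, and the median log2 fold change was -0.11. Mcm7, a subunit of the replicative helicase and the most abundant, stood at 167, 224 and 62.4 CPM in control and 170.2, 168 and 53.7 CPM in AMD3100-treated eSMGs. Its values were low in replicate 3 of both groups and overlapped between them (log2 fold change -0.21, SE 0.55, unadjusted p by edgeR = 0.709). The groups of Mcm4, Mcm6 and Tyms did not overlap and were lower in AMD3100, as for 4.17% of all genes, with edgeR unadjusted p-values of 0.0710 (Mcm4), 0.0954 (Mcm6) and 0.0692 (Tyms). With the replicate block edgeR called 2 of the 20, beside 4.39% of all genes, namely Mcm4 (log2 fold change -0.71, unadjusted p = 0.0424) and Tyms (log2 fold change -0.89, unadjusted p = 0.0319), with adjusted p-values of 0.730 and 0.722.

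Among 132 RNA genes in the count table whose products lack a poly(A) tail or end in an encoded A-rich stretch, 27 were tested, and 1 was called lower and 0 higher, beside 1.28% and 0.397% of all genes, with a median log2 fold change of 0.05. Rn45s, Malat1 and Snora81 were the most abundant. Malat1, a nuclear RNA with an A-rich end, stood at means of 1383 ± 144 CPM in control and 1577 ± 302 CPM in AMD3100-treated eSMGs (SD, n = 3 each). Snora81, a small nucleolar RNA gene, had 1187, 987 and 153 counts in the control replicates, against 787, 993 and 165 with AMD3100, and was low in replicate 3 of both groups. The gene called was Snora68, at 18, 12 and 11 counts in the control replicates, against 1, 0 and 1 with AMD3100 (edgeR unadjusted p = 0.0417, adjusted p = 1.0). The call was lost with the replicate block (edgeR unadjusted p = 0.122) and without the filter on low counts (edgeR unadjusted p = 0.0906). It was also lost with any single library left out (edgeR unadjusted p from 0.0877 to 0.138). The fitted log2 fold change of Snora68, which at such counts depends on the prior count, was -4.14, and -4.90 to -3.63 with libraries left out.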

How the data were processed

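For each of the 6 libraries the authors deposited unnormalized counts of reads by gene symbol. The paper's methods give 50-base single reads and a 3′ mRNA kit, and the submitters' processing notes name Bowtie2, edgeR and mm10. How reads with several places were counted is not given in the sources used here. Of 23282 lines per library, 22 repeated both the symbol and counts of another and were left out. Counts were fitted with edgeR 4.0.16 in R 4.3.3 (TMM, filterByExpr on treatment, glmQLFit without robust estimation, glmQLFTest, Benjamini-Hochberg adjustment over 13610 genes), with treatment as the only term. The SE is the log2 fold change over the root of its F. Code was tested on simulated data. DESeq2 1.42.0 and other settings were alternatives.

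Libraries of both groups carry the same replicate numbers in the labels, and these were checked by correlating, across genes, deviations of log2(CPM + 1) from the group means. Same-numbered libraries had correlations of 0.284, 0.259 and 0.688 for replicates 1 to 3, all over 0.1, and were taken as pairs, although control replicate 2 correlated better with AMD3100 replicate 1 (0.307).

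Genes named were the 12 replication-dependent genes with the highest mean CPM, every variant tested, members called or without overlap between groups, the 3 of each class with the largest spread, and, in the other lists, the genes called and the most abundant. Others are named as examples. The members, lists and rules were chosen with earlier results of these data known. Sequences are from GENCODE vM1 transcripts matched by symbol, and positions from RefSeq on GRCm38.p6, where 82 of 84 symbols matched 1 gene and the others more. The 7 marker lists covered epithelium, mesenchyme, endothelium, red blood cells, macrophages, skeletal muscle and parasympathetic neurons.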

Additional observations from a re-analysis of the deposited data

How the results depend on the processing

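Precision is limited by 3 libraries per group, by the distance of replicate 3 from the rest and, for H2B, H3 and H4 genes, by counts near 0. Of 444 values of 32 named genes under the alternatives, 433 stayed on the same side of the threshold, 9 were weaker (all Snora68) and 2 stronger (both H2afy2). Over the whole table, 228 genes had an unadjusted p under 0.05 with a fold change over 1.5, against 479 with DESeq2, 598 with the replicate block and 163 to 613 with libraries left out (547 without control replicate 3, 451 without AMD3100 replicate 3 and 613 without both). Adjusted p-values under 0.05 numbered 0, but 5 with DESeq2 and 3 with the replicate block, none of them a histone gene. Variant histone genes called numbered 0, but 1 with the replicate block and 0 to 1 with libraries left out. The block changed no call of a replication-dependent gene, and the calls of other lists that it changed are given beside them. In the last 150 bases in place of 300, 31 of 66 replication-dependent genes, in place of 46, and 0 of 12 variants shared over 10% of windows. The causes were not tested. Without the filter, as with DESeq2, 67 replication-dependent genes were tested.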

Other observations

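Genes of histone-like proteins outside the symbol rule were looked up after the analysis of the histone genes. Cenpa, which encodes the H3 variant of centromeres, stood at 30.3, 26.4 and 23.5 CPM in control and 18.1, 20.8 and 12.3 CPM in AMD3100-treated eSMGs. The groups did not overlap, as for 7.44% of all genes tested (4.17% lower in AMD3100), with -0.65 as log2 fold change (SE 0.34, unadjusted p by edgeR = 0.0894, adjusted p = 1.0). Hils1, a linker histone gene of spermatids, had 0 counts in every library.

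Hist2h3c1 and Hist2h3c2 had the same counts in every library, with 0, 0 and 3 in control and 0, 0 and 7 in AMD3100-treated eSMGs. No marker of the 7 cell type lists was called between AMD3100 and control by an unadjusted p under 0.05 with a fold change over 1.5 in edgeR, beside 1.68% of all genes. With the replicate block 4 markers were called, beside 4.39% of all genes, namely Krt15 (log2 fold change 0.62), Twist1 (-0.97), Myog (-1.16) and Myod1 (-2.05), with adjusted p-values from 0.468 to 0.722. The summed level of the neuronal markers ranged from 581 to 990.4 CPM over the 6 libraries, that of the macrophage markers from 47.9 to 91.1 CPM and that of the endothelial markers from 16.1 to 46.9 CPM. The red blood cell markers, led by Hba-a1, held 0.717%, 2.03% and 1.04% of the counts in control and 0.845%, 1.05% and 1.07% in AMD3100-treated eSMGs. Hbb-b2, a beta-globin gene, stood at 920, 2203 and 3295 CPM in control and 859, 1428 and 2759 CPM in AMD3100-treated eSMGs, and was highest in replicate 3 of each group.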
